A study of Mus musculus with 27 samples.

Results

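The interleukin 1 family and inflammasome genes described here are 10 of the 51789 gene IDs counted in mouse ovary: the ligands Il1b, Il1a and Il18, the receptor antagonist Il1rn, the receptors Il1r1 and Il1r2, and the inflammasome genes Nlrp3, Aim2, Pycard and Casp1. They were chosen by name, with earlier results of these data known. Each was matched through its Ensembl ID to its GENCODE M21 symbol, which 51596 of the IDs received. The RNA came from ovaries in 2 experiments, as 27 libraries whose labels each name a single mouse. In experiment 1, aged mice numbering 4 received TRi-1, which inhibits thioredoxin reductase 1, and were set beside 4 aged and 5 young untreated mice. In experiment 2, aged mice numbering 4 received auranofin, a gold compound and inhibitor of thioredoxin reductases, and were set beside 5 aged and 5 young untreated mice. The labels used here give no strain, age, dose or length of treatment, and untreated mice are labelled as controls with no vehicle named. The series title links thioredoxin reductase 1 to inflammation that comes with age, and the comparisons ask how these transcripts differ between aged and young ovaries and between treated and untreated aged ovaries.

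Interleukin 1 beta (Il1b) and interleukin 1 alpha (Il1a) are proinflammatory cytokines that signal through the receptor Il1r1, whereas Il1rn encodes a secreted antagonist that occupies the same receptor and Il1r2 a decoy receptor that binds the ligands without signalling. The precursors of Il1b and Il18 are cut to their active forms by caspase 1 (Casp1), which is recruited to inflammasomes by the adaptor ASC (Pycard) after a sensor such as NLRP3 or the DNA sensor AIM2 has been engaged. Transcription of Il1b, Il1rn and Nlrp3 is known to be inducible in macrophages and neutrophils, and in the ovary IL-1 signalling is known for its part in ovulation. Transcript counts carry no information on the cutting of the precursors.

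Levels are given as CPM, counts scaled to a common library total, after TMM scaling between the 27 libraries, and differences as log2 fold changes ± standard error from edgeR's quasi-likelihood test. A gene is said to have risen or fallen where its Benjamini-Hochberg adjusted p over all genes tested was under 0.05. The libraries are 3′ tag libraries, so a count stands for a tag near a transcript's end.

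The members lie on 5 chromosomes (mm10, GENCODE M21). Il1b is at chromosome 2, 129364570 to 129371139 on the minus strand, and Il1a beside it at 129299610 to 129309972, also on the minus strand. Il1rn lies elsewhere on chromosome 2, at 24336853 to 24351494 on the plus strand. Il1r1 (40225080 to 40317257) and Il1r2 (40074079 to 40125231) are neighbours on the plus strand of chromosome 1, which also holds Aim2 (173350879 to 173466040, plus strand). Il18 (50554827 to 50581840) and Casp1 (5298517 to 5307265) are on the plus strand of chromosome 9, Nlrp3 (59541568 to 59566956) on the plus strand of chromosome 11, and Pycard (127989708 to 127993867) on the minus strand of chromosome 7. All 10 are annotated as protein coding. Gene models on the opposite strand overlap Il1b (Il1bos), Il1a (Gm14023), Il1r2 (Gm16894), Il18 (Bco2 and Tex12), Aim2 (Cadm3) and Pycard (Gm45205), and models on the same strand overlap Il1r1 (Gm38070) and Il1r2 (Gm37347). Whether counting used the strand is not given in the sources used here, so the reads of these overlapping genes cannot be told apart.

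The promoter windows of the ligands and of the antagonist are shown because Il1b and Il1rn had the largest fold changes with age among the members tested and Il1a, the neighbour of Il1b, was counted at a far lower level. Each window runs from 250 bases before a RefSeq transcript start to 50 after it (GRCm38.p6), 5′ to 3′ on the gene's strand. Capitals mark matches, on either strand, to a TATA box (TATAAA), an AP-1 motif (TGANTCA), an NF-kB motif (GGG and TTCC with any 3 bases between) or a C/EBP motif (TTGNGNAA), and no match overlaps another in these windows. The windows are chr2:129371090-129371389 (minus strand) for Il1b, chr2:129309923-129310222 (minus strand) for Il1a, and chr2:24336610-24336909 and chr2:24345121-24345420 (plus strand) for the first and a later start of Il1rn.
Il1b: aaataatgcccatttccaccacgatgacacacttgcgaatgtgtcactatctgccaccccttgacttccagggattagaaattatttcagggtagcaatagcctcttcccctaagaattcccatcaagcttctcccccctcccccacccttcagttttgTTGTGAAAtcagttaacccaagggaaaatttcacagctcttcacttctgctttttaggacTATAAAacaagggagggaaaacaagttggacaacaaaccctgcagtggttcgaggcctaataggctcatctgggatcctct
Il1a: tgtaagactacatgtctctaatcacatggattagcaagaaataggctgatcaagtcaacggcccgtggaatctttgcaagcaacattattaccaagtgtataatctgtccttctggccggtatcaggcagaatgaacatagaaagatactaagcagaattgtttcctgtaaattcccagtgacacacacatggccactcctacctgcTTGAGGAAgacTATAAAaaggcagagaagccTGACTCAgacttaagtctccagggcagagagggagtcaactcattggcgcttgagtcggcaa
Il1rn, first start: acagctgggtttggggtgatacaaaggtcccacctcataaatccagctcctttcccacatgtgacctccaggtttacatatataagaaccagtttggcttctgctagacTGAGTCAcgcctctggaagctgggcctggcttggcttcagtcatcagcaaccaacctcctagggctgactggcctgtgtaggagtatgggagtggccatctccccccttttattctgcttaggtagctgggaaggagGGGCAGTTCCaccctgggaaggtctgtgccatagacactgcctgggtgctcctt
Il1rn, later start: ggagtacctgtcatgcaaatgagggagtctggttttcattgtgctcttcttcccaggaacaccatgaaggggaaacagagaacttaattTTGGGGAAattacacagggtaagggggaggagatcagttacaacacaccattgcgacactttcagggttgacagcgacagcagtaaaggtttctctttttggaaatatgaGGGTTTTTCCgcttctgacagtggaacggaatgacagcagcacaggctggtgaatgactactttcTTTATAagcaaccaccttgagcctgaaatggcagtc

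In the Il1b window a TATA box began 31 bases before the start and a C/EBP match 91 bases before it. The Il1a window held a TATA box 32 bases, an AP-1 match 12 bases and a C/EBP match 43 bases before the start. At the first start of Il1rn an AP-1 match lay 141 bases and an NF-kB match 4 bases before it, and at the later start an NF-kB match lay 51 bases and a C/EBP match 161 bases before it, with a TATA match 14 bases after it. RefSeq gave 14 windows for the 10 genes, of which 2 of Il1rn overlap. Over those 14, a TATA match was present in 4, AP-1 in 2, NF-kB in 4, C/EBP in 6 and an interferon-type motif (GAAA and GAAA with any 2 bases between) in 0. Over all 32851 mouse promoter windows of the same length the shares were 13.6% for the TATA box, 7.81% for AP-1, 5.56% for NF-kB, 13.3% for C/EBP and 3.44% for the interferon-type motif. A match describes the letters of the window and says nothing of whether a factor bound there.

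Library totals were 9183605 to 10784379 counts in TRi-1-treated, 9791693 to 14814381 in untreated aged and 6460903 to 10077161 in young ovaries of experiment 1, and 9895231 to 14479170 in auranofin-treated, 10139429 to 14027986 in untreated aged and 6782228 to 9799253 in young ovaries of experiment 2. Haemoglobin genes took 4.5 to 12% of counts in TRi-1-treated, 9.52 to 22.7% in untreated aged and 1.87 to 8.19% in young ovaries of experiment 1, and 0.469 to 5.61%, 1.26 to 5.49% and 0.289 to 5.19% in the auranofin-treated, untreated aged and young ovaries of experiment 2. Oocyte markers summed to 3.46 to 8.99 CPM in aged and 106 to 215 CPM in young ovaries of experiment 1, and to 2.28 to 8.03 CPM in aged and 4.1 to 114 CPM in young ovaries of experiment 2. Libraries that stood apart were young library 3 of experiment 2, auranofin library 3 and aged library 3 of experiment 1. The theca and luteal markers (Star, Cyp11a1, Cyp17a1, Lhcgr and Hsd3b1) summed to 16 CPM in that young library, whereas the young group's median was 2160 CPM, and to 21.1 CPM in auranofin library 3, where the group's median was 348 CPM. Both also held the epithelial transcripts Sprr2f (289 CPM in the auranofin library and 2389 CPM in the young library) and Padi1 (203 CPM and 1124 CPM), which were picked after their values were seen. That young library also had the lowest sums of its group for oocyte markers (4.1 CPM, within the aged range, the other young libraries 34.9 to 114 CPM) and granulosa markers (76.4 CPM, the others 343 to 815 CPM). In aged library 3 of experiment 1, hepatocyte markers summed to 1760 CPM, against a group median of 125 CPM. Results that rest on these libraries are given with and without them.

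Il1b and Il1rn had the largest differences between aged and young ovaries among the members tested, in both experiments. In aged ovaries of experiment 1, Il1b had 20.7, 24.1, 96.1 and 38.2 CPM, against 1.36, 0.464, 0, 0.478 and 0 CPM in young ovaries. In experiment 2 it had 90.4, 76.4, 170, 39.8 and 22.7 CPM in aged ovaries, against 0.4, 0.554, 0.798, 1.55 and 0.934 CPM in young ovaries. No young ovary reached the lowest aged ovary in either experiment, and the young levels rest on 19 and 42 counts in all. Il1b rose by a log2 fold change of 6.44 ± 0.69 in experiment 1 (86.6-fold, adjusted p = 8.7e-06) and of 6.52 ± 0.75 in experiment 2 (91.9-fold, adjusted p = 1.3e-04). The size in experiment 1 depended on single libraries: it was 5.71 without aged library 3 and 7.36 without young library 1, which held most of the young counts.

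Il1rn, the antagonist, followed the same pattern. It had 12.6, 26.1, 106 and 28 CPM in aged ovaries of experiment 1, against 1.24, 0.31, 1.3, 0.478 and 0.874 CPM in young ovaries. In experiment 2 aged ovaries had 58, 57, 141, 44.8 and 19.6 CPM, and young ovaries 1.2, 0.692, 0.456, 2.43 and 1.19 CPM. Again the groups did not overlap, and the library with the most Il1b was also the one with the most Il1rn in the aged group of each experiment. The log2 fold changes were 5.68 ± 0.59 in experiment 1 (51.2-fold, adjusted p = 6.9e-06; 4.69 without aged library 3) and 5.71 ± 0.60 in experiment 2 (52.3-fold, adjusted p = 8.1e-05). These are levels in bulk ovary RNA, where more cells of a type and more RNA per cell cannot be told apart.

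Il1a stayed near the limit of detection in every group. Aged ovaries of experiment 1 had 0, 1.94, 1.59 and 1.59 CPM and young ovaries 0, 0.464, 0.185, 0.836 and 0.291 CPM, a log2 fold change of 1.83 ± 1.08 that did not pass the threshold (95% interval -0.45 to 4.12, adjusted p = 0.203). In experiment 2, where it did not pass the filter on low counts, it had 0.323, 0.254, 1.1, 0.631 and 0.574 CPM in aged ovaries. All 25 young counts of that experiment were in young library 3, at 2.85 CPM, and the other 4 young ovaries had 0 counts.

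**Figure D1:**
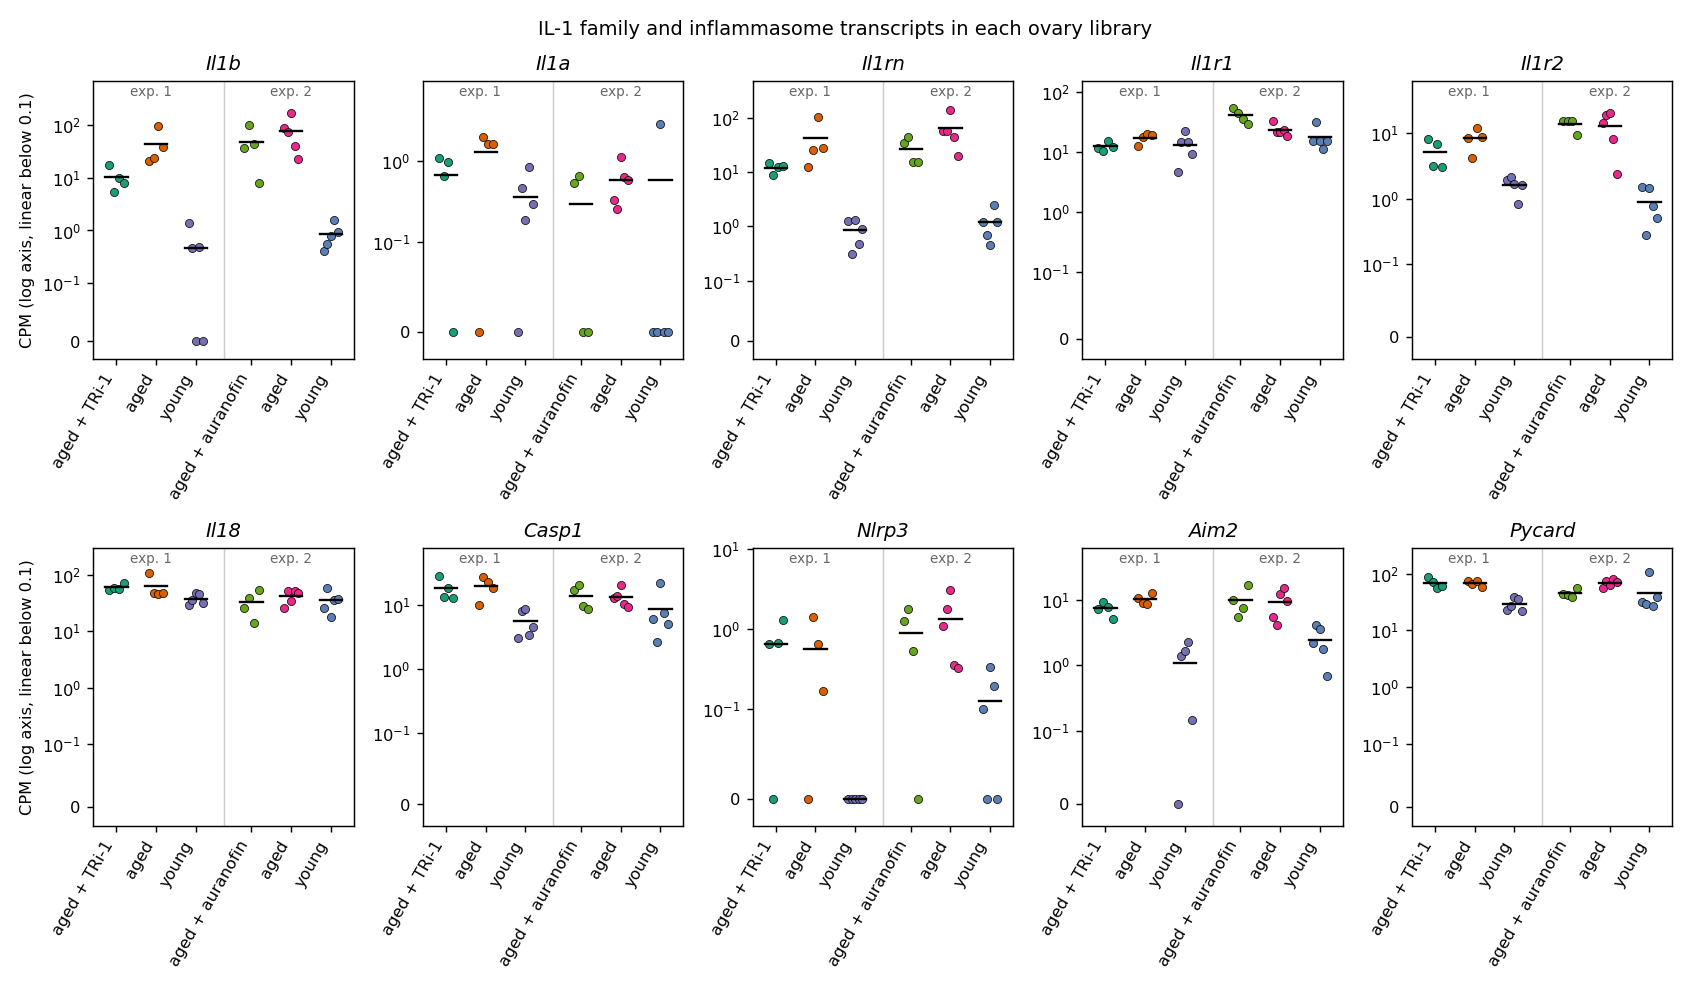
Level of each of the 10 genes in each of the 27 libraries, in CPM on a log axis that is linear below 0.1, with treated aged, untreated aged and young ovaries from left to right within each experiment. Points are libraries and horizontal lines group means. Il1b and Il1rn are at 12.6 CPM or more in untreated aged ovaries and at 2.43 CPM or less in young ovaries, whereas Il1r1 overlaps between aged and young in both experiments.

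Of the receptors, Il1r2 passed the threshold with age in both experiments and Il1r1 in neither. The decoy receptor Il1r2 had 8.62, 4.18, 11.9 and 8.72 CPM in aged ovaries of experiment 1, against 1.92, 2.17, 1.67, 0.836 and 1.6 CPM in young ovaries. In experiment 2 it had 14.5, 18.9, 20.3, 8.21 and 2.38 CPM in aged ovaries, against 1.5, 0.277, 1.48, 0.777 and 0.509 CPM in young ovaries. It thus rose without overlap in both, by 2.35 ± 0.43 (adjusted p = 6.1e-04) and 3.80 ± 0.56 (adjusted p = 7.1e-04) on the log2 scale. The signalling receptor Il1r1 had 12.8 to 19.9 CPM in aged and 4.74 to 22.8 CPM in young ovaries of experiment 1, and 18.9 to 33 CPM in aged and 11.2 to 32.3 CPM in young ovaries of experiment 2. Its differences were 0.41 ± 0.34 (95% interval -0.31 to 1.13, adjusted p = 0.371) and 0.41 ± 0.29 (-0.21 to 1.02, adjusted p = 0.447), and the groups overlapped.

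Within a library, the ratio of Il1r2 to Il1r1 counts needs no scaling between libraries. Its log2 (with 0.5 added to each count) averaged -1.14 ± 0.69 in aged and -2.86 ± 1.10 in young ovaries of experiment 1 (SD, n = 4 and 5), a difference of 1.71 with overlapping groups and an exact two-sided permutation p of 0.0397. In experiment 2 it averaged -1.20 ± 1.16 in aged and -4.35 ± 1.36 in young ovaries (SD, n = 5 each), a difference of 3.16 with no overlap and an exact permutation p of 0.00794, the smallest that this design allows. Adjusted over the 8 ratio tests made, these were 0.159 and 0.0635, so neither passed the threshold, and 2 of the 8 had an unadjusted p under 0.05. The ratio of Il1rn to Il1b was -0.23 ± 0.43 in aged and 1.40 ± 2.20 in young ovaries of experiment 1, where 2 young libraries had no Il1b count, and -0.28 ± 0.30 in aged and 0.40 ± 0.79 in young ovaries of experiment 2 (exact permutation adjusted p = 0.508 and 0.229). Antagonist and agonist counts in untreated aged ovaries were therefore near each other in each library, at 0.607 to 1.13 Il1rn counts per Il1b count, while both were far above the young level. In auranofin-treated ovaries the ratio spread more widely, from 0.337 to 1.92, with a mean log2 of -0.50 ± 1.14 (SD, n = 4; exact permutation p = 0.714 against untreated aged ovaries).

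**Figure D2:**
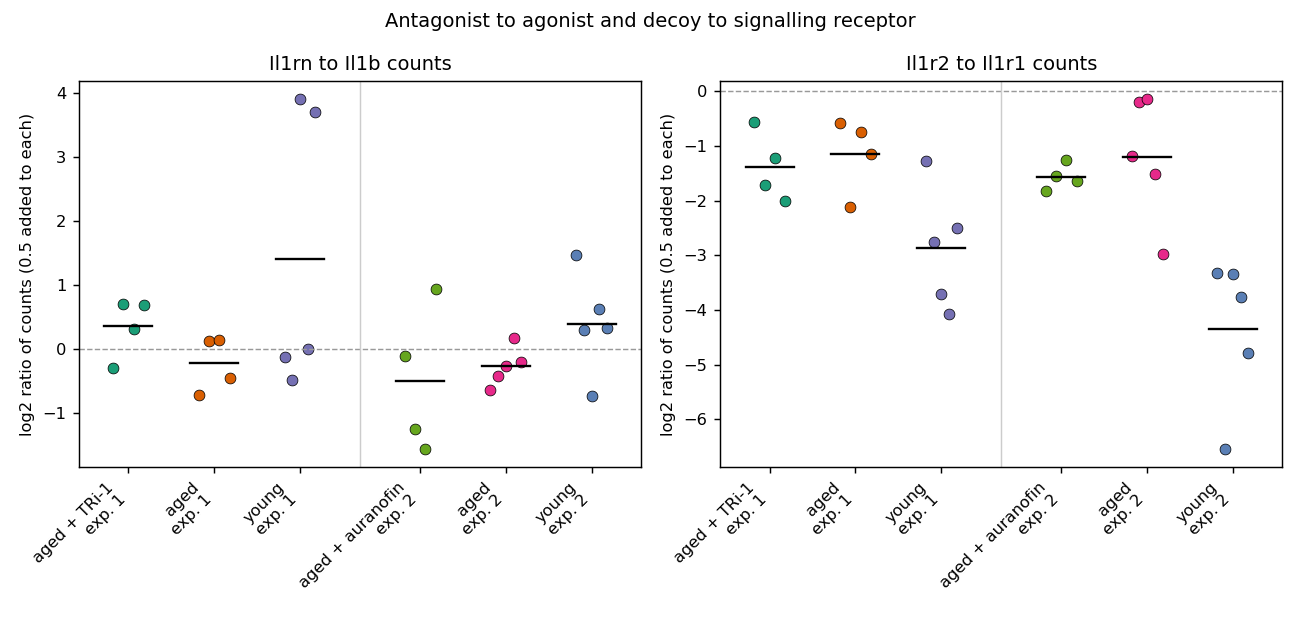
Log2 ratio of Il1rn to Il1b counts (left) and of Il1r2 to Il1r1 counts (right) in each library, with 0.5 added to each count; lines are group means and the dashed line marks equal counts. Young ovaries have the lowest mean Il1r2 to Il1r1 ratio in both experiments, at -2.86 and -4.35; in experiment 1 young library 1, at -1.28, lies above aged library 2, at -2.11.

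Among the inflammasome genes, the sensor Aim2 rose in both experiments. It had 10.8, 8.87, 8.6 and 12.7 CPM in aged ovaries of experiment 1, against 0, 1.39, 1.67, 2.27 and 0.146 CPM in young ovaries, with no overlap and a log2 fold change of 3.25 ± 0.63 (adjusted p = 9.0e-04). In experiment 2 aged ovaries had 5.43, 4.14, 12.2, 15 and 9.67 CPM and young ovaries 2.2, 4.15, 3.53, 1.75 and 0.679 CPM. The lowest aged and the highest young ovary were here at almost the same level, and the log2 fold change was 1.91 ± 0.50 (adjusted p = 0.0213). That call was lost without any 1 of 4 libraries, young libraries 1 and 4 and aged libraries 3 and 4, where the adjusted p was 0.0544, 0.0526, 0.052 and 0.0642 (0.00222 to 0.0642 over all alternatives).

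Nlrp3, the other sensor, was counted rarely. It had 0, 1.43, 0.654 and 0.168 CPM in aged ovaries of experiment 1, from 23 counts, and no count in the 5 young ovaries, so it was at least 6.8-fold higher in aged ovaries against a floor of 3 counts over the young group, and at least 3.51-fold without aged library 2, which held 14 of the counts. It did not pass the filter on low counts there. In experiment 2 it had 1.1, 1.78, 3.05, 0.361 and 0.328 CPM in aged and 0.1, 0, 0.342, 0.194 and 0 CPM in young ovaries, a log2 fold change of 3.28 ± 1.14 whose adjusted p of 0.0846 missed the threshold. DESeq2 gave that difference an adjusted p of 0.0316, and edgeR gave 0.0413 without auranofin library 4 (0.0316 to 0.202 over all alternatives).

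Pycard, the adaptor, and Casp1, the protease, rose in experiment 1. Pycard had 73.9, 64.4, 73.6 and 57.7 CPM in aged and 22.4, 26.8, 39.1, 35.7 and 21.8 CPM in young ovaries (log2 fold change 1.22 ± 0.21, adjusted p = 3.2e-04). Casp1 had 10.1, 27.6, 22.9 and 18.7 CPM in aged and 3.05, 8.05, 8.7, 3.34 and 4.52 CPM in young ovaries (1.87 ± 0.38, adjusted p = 0.00133). Neither overlapped between the groups.

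In experiment 2 both depended on young library 3, which had lower theca and luteal, granulosa and oocyte marker sums than the other young libraries of the experiment. Pycard had 56.9, 73.7, 63.5, 80 and 71.3 CPM in aged ovaries and 31.6, 28.8, 106, 27.4 and 38.5 CPM in young ovaries, the 106 CPM being that library's. With all libraries the difference was 0.57 ± 0.32 (adjusted p = 0.322), and without young library 3 it was 1.13 ± 0.18 (adjusted p = 0.00127, and 0.00127 to 0.544 over all alternatives). Casp1 had 12.7, 13.7, 20.4, 10.4 and 9.43 CPM in aged and 6.11, 2.63, 22, 7.38 and 5.01 CPM in young ovaries, again highest in that young library. Its difference was 0.63 ± 0.46 with all libraries (adjusted p = 0.469) and 1.33 ± 0.37 without young library 3 (adjusted p = 0.0291, and 0.0291 to 0.704 over all alternatives).

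Il18, the other caspase 1 substrate, differed least among the genes called in experiment 1. It had 108, 46.8, 44.9 and 47.8 CPM in aged and 28.8, 36.2, 46.5, 45.8 and 31.3 CPM in young ovaries, and aged library 1 stood far above the other 3. The log2 fold change was 0.72 ± 0.25 (adjusted p = 0.0366), with overlapping groups, and 0.32 without aged library 1 (adjusted p = 0.216). The call was also lost in each of 6 other fits that left out 1 library: without young library 1, 2 or 5 (adjusted p = 0.102, 0.0714 and 0.0827) and without TRi-1 library 1, 2 or 3 (0.0527, 0.0542 and 0.0534), with a range of 0.0268 to 0.216 over all alternatives. In experiment 2 the levels were 25.6 to 51.3 CPM in aged and 17.9 to 58.6 CPM in young ovaries (0.26 ± 0.36, adjusted p = 0.736).

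Counted together, 9 of the 10 genes passed the filter on low counts in experiment 1 and 7 of these 9 rose, while 18.5% of the 16028 genes tested rose (edgeR's quasi-likelihood test). Of these, Il1b, Il1rn, Il1r2, Casp1, Aim2 and Pycard had aged levels that lay above every young level, as 14% of genes did. In experiment 2, 9 of the 10 genes passed and 4 rose, Il1b, Il1rn, Il1r2 and Aim2, where 5.86% of the 16309 genes tested rose. Of these, Il1b, Il1rn and Il1r2, did not overlap between groups, as was so for 6.47% of genes. The members' median log2 fold change was 1.87 in experiment 1 and 1.91 in experiment 2, beside 0.02 and -0.03 over all genes tested. Without the libraries of experiment 2 that stood apart, young library 3 and auranofin library 3, the number that rose was 6. The share of all genes that rose in that fit is not given here, so this number cannot be set beside it.

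**Figure D3:**
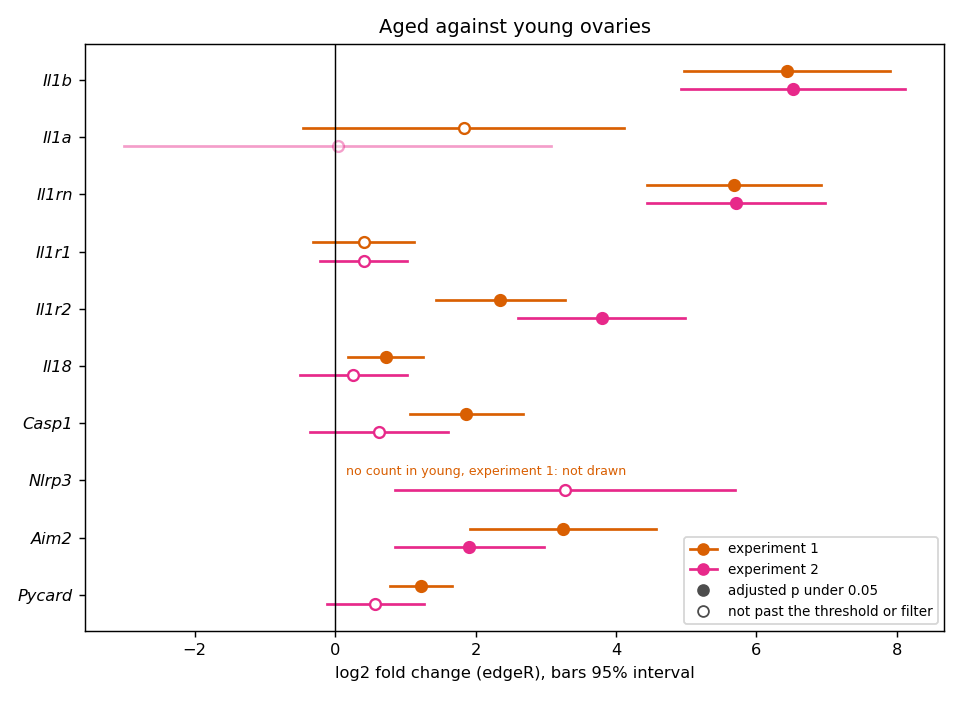
Log2 fold change of each gene in aged against young ovaries, by experiment, with 95% intervals from edgeR. Filled points passed the adjusted threshold of 0.05 and pale ones did not pass the filter on low counts. Il1b and Il1rn lie between 5.68 and 6.52 in both experiments and the intervals of Il1r1 include 0.

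The age difference of each gene was compared between the experiments in a fit of all 27 libraries. None of the 10 genes passed the threshold in edgeR's test of the difference, and none in DESeq2's, where 0% of the 17484 genes tested passed in edgeR's. An unadjusted p under 0.05 was found for 1 of the 10 and for 2067 of all 17484 genes. For Il1b the difference of age effects, experiment 2 minus experiment 1, was 0.08 ± 1.28 (95% interval -2.55 to 2.72), and for Il1rn 0.03 ± 1.09 (-2.22 to 2.28). Both intervals span more than a doubling in either direction. Il1r2 had the smallest p, with a difference of 1.45 ± 0.70 (edgeR adjusted p = 0.416), and Casp1 had -1.23 ± 0.63 (adjusted p = 0.45).

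Markers of leukocytes also differed between aged and young ovaries. The 12 neutrophil markers summed to 750 to 2100 CPM in aged and 36.7 to 169 CPM in young ovaries of experiment 1, and to 389 to 4050 CPM in aged and 27.4 to 413 CPM in young ovaries of experiment 2. Of the markers tested, S100a8 and S100a9 had the highest mean levels in aged ovaries and Ltf in young ovaries. In experiment 2, S100a8 averaged 856 CPM in aged and 3.23 CPM in young ovaries, and S100a9 585 and 2.4 CPM. Ltf averaged 104 and 96.5 CPM there (edgeR adjusted p = 0.96), and 132 and 53.6 CPM in experiment 1 (0.102). Of the neutrophil markers tested, 6 of 8 rose with age in experiment 1 and 6 of 11 in experiment 2, with Csf3r without a count in young ovaries of experiment 1 and Ngp and Elane without one in young ovaries of experiment 2. The 14 macrophage and monocyte markers summed to 5910 to 9060 CPM in aged and 754 to 1160 CPM in young ovaries of experiment 1, where 12 rose, and to 4200 to 7600 CPM in aged and 667 to 1360 CPM in young ovaries of experiment 2, where 11 rose. None of the macrophage markers was at 0 in any group. For comparison, 18.5% of all genes tested rose in experiment 1 and 5.86% in experiment 2. T cell markers rose in 7 of 7 and 5 of 7 cases, B cell and plasma cell markers in 6 of 6 in both experiments, and dendritic cell markers in 4 of 7 and 1 of 7. Red blood cell markers rose in 6 of 6 in experiment 1 and 1 of 6 in experiment 2. The part of these cells in the rises of Il1b, Il1rn, Il1r2 and the inflammasome genes was not tested.

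Related genes were taken in lists by function, also chosen with earlier results of these data known. Of 22 genes known to be induced by IL-1, 17 were tested in experiment 1 and 15 rose, and 18 were tested in experiment 2 and 13 rose, with no gene that fell. Among all genes tested, 18.5% and 5.86% rose. The adhesion molecules Icam1 and Vcam1 rose in both: Icam1 averaged 56.5 ± 11.8 CPM in aged and 7.48 ± 0.775 CPM in young ovaries of experiment 1 (SD, n = 4 and 5; log2 fold change 2.93 ± 0.23, edgeR adjusted p = 1.9e-06), and Vcam1 averaged 222 ± 81.2 CPM in aged and 18.3 ± 2.29 CPM in young ovaries of experiment 2 (SD, n = 5 each; 3.60 ± 0.35, edgeR adjusted p = 5.6e-05). Ccl2, a chemokine that attracts monocytes, rose by 4.38 ± 0.63 in experiment 1 (4.98 without young library 4), and Nfkbiz, a nuclear regulator of NF-kB target genes, by 2.14 ± 0.28. In experiment 2 Cxcl5, a chemokine that attracts neutrophils, rose by 6.66 ± 0.72 and Saa3, an acute-phase protein, by 6.18 ± 0.75. The list's median log2 fold change was 2.14 in experiment 1 and 2.52 in experiment 2.

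Of 15 other ligands and receptors of the family, 10 were tested in each experiment, and 6 and 4 rose, beside 18.5% and 5.86% of all genes tested. Il36g, a ligand of the IL-36 receptor, had 325 counts in aged and none in young ovaries of experiment 1, at least 96.1-fold higher against a floor of 3 counts over the young group. Of those counts 274 were in aged library 3 and 14 to 19 in each of the others, and without aged library 3 the bound was at least 20.5-fold. In experiment 2 it averaged 20.3 ± 15.7 CPM in aged and 1.24 ± 2.37 CPM in young ovaries (SD, n = 5 each; 4.04 ± 1.12, edgeR adjusted p = 0.0305, and 6.62 without young library 3), a call lost in 7 of the fits that left out 1 library, with adjusted p up to 0.0767. Il18r1, a chain of the IL-18 receptor, rose by 1.27 ± 0.29 and 2.25 ± 0.46, and in experiment 1 its partner chain Il18rap by 1.60 ± 0.51 and the soluble IL-18 inhibitor Il18bp by 1.32 ± 0.34. The call of Il18rap was lost without aged library 4, at an adjusted p of 0.0504 (0.00995 to 0.0591 over all alternatives). In experiment 2 the alarmin Il33 rose by 1.80 ± 0.45 and its receptor Il1rl1 by 1.76 ± 0.25.

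Of the 14 genes of IL-1 receptor signalling, 3 rose and 1 fell in experiment 1 and 1 rose in experiment 2. The shares that rose were near those over all genes tested, 18.5% in experiment 1 and 5.86% in experiment 2. Myd88, the adaptor of the receptor complex, rose by 1.59 ± 0.22, and the kinases Irak1 and Irak4 by 0.90 ± 0.17 and 1.35 ± 0.30, whereas Tab2, a partner of the kinase TAK1, fell by 0.91 on the log2 scale. In experiment 2 the kinase Irak2 rose by 1.77 ± 0.35. Without aged library 1 the number called in experiment 1 was 7, and without young library 1 or 3 the number in experiment 2 was 2. The shares over all genes in those fits are not given here. Of 21 other inflammasome and pyroptosis genes, 8 of 17 tested rose and 1 fell in experiment 1, and 5 of 18 rose in experiment 2. Without young library 3 the number in experiment 2 was 8, again with no share over all genes given for that fit. Ninj1, which ruptures the membrane late in lytic cell death, rose by 1.87 ± 0.27 and 1.53 ± 0.34, and the interferon-inducible GTPases Gbp2 and Gbp5 rose by 2.06 ± 0.31 and 3.48 ± 0.54 in experiment 1 and by 1.75 ± 0.39 and 2.72 ± 0.38 in experiment 2. The pore-forming substrate of inflammatory caspases, Gsdmd, rose by 1.21 ± 0.26 in experiment 2, and the channel Panx1 by 1.49 ± 0.27 in experiment 1. The gene that fell was Brcc3, a deubiquitinase, at 24.6 CPM in aged and 40.1 CPM in young ovaries, named after its value was seen.

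In TRi-1-treated aged ovaries, Il1b and Il1rn were lower than in untreated aged ovaries, but no member passed the threshold. The untreated aged ovaries are the same libraries that were set against young ovaries above. Il1b had 17.9, 5.43, 9.8 and 8.03 CPM with TRi-1, against 20.7, 24.1, 96.1 and 38.2 CPM in untreated aged ovaries. Every treated ovary was below every untreated one, as was so for 4.57% of the 16028 genes tested. The log2 fold change was -2.14 ± 0.57 (95% interval -3.35 to -0.94, unadjusted p = 0.00166, edgeR adjusted p = 0.0872). Without aged library 3 it was -1.42 ± 0.54 with an adjusted p of 0.266.

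Il1rn had 14.6, 8.84, 12.2 and 13 CPM with TRi-1, against 12.6, 26.1, 106 and 28 CPM in untreated aged ovaries. Its treated values lay close together and overlapped the lowest untreated ovary. The difference was -1.85 ± 0.50 (95% interval -2.91 to -0.79, unadjusted p = 0.00197, edgeR adjusted p = 0.0926) and -0.86 ± 0.37 without aged library 3, at an adjusted p of 0.321. With no filter on low counts both Il1b and Il1rn passed the threshold (adjusted p = 0.0332 and 0.0418), and in DESeq2 Il1rn did (0.0138). Over all alternatives the adjusted p ran from 0.0332 to 0.266 for Il1b and from 0.0138 to 0.321 for Il1rn.

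The other members differed less with TRi-1. Il1r2 had 8.05, 3.13, 6.76 and 3.04 CPM, against 8.62, 4.18, 11.9 and 8.72 CPM in untreated aged ovaries (-0.69 ± 0.43, adjusted p = 0.448). Il1r1 had 10.4 to 15.7 CPM with TRi-1 and 12.8 to 19.9 CPM untreated (-0.51 ± 0.36, adjusted p = 0.516), and Aim2 5.1 to 9.3 CPM with TRi-1 and 8.6 to 12.7 CPM untreated (-0.49 ± 0.59, adjusted p = 0.734). Pycard averaged 68.2 ± 13.4 CPM with TRi-1 and 67.4 ± 7.8 CPM untreated (SD, n = 4 each), with a 95% interval of the log2 fold change from -0.46 to 0.46. For Casp1 that interval ran from -0.98 to 0.66, for Il18 from -0.63 to 0.49, and for Il1a, at 0 to 1.07 CPM with TRi-1, from -3.26 to 1.33. Nlrp3 had 0.644, 0, 0.666 and 1.3 CPM with TRi-1 and 0, 1.43, 0.654 and 0.168 CPM untreated, and was not tested there.

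In all, 0 of the 9 genes tested passed with TRi-1 in edgeR's test, where 0.418% of all genes passed in either direction. Of the 9, 2 had an unadjusted p under 0.05, as did 2650 of all 16028 genes tested. In DESeq2, which called more genes in all than edgeR, 1 of the 9 passed. The 9 fitted log2 fold changes were all below 0, with a median of -0.51, beside -0.00 over all genes, but that of Pycard was -0.00, and 0.02 in the fit of all 27 libraries. The neutrophil marker sum was 196 to 1180 CPM with TRi-1 and 750 to 2100 CPM untreated, and the macrophage and monocyte sum 3150 to 6600 CPM with TRi-1 and 5910 to 9060 CPM untreated; in each list no marker passed the threshold and none was at 0. The part of these differences in those of Il1b and Il1rn was not tested. The Il1rn to Il1b ratio averaged 0.35 ± 0.47 with TRi-1 and -0.23 ± 0.43 untreated (SD, n = 4 each; exact permutation p = 0.114, adjusted 0.229, with 0.0286 the smallest p the design allows). Of the 58 tested genes of the 4 pathway lists, 0 passed with TRi-1 in edgeR's test and 5 in DESeq2. DESeq2 also called more genes over all, as given in the last section, and its counts here were not compared with its share over all genes. An unadjusted p under 0.05 was found for 8 of these 58, a smaller share than over all genes.

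With auranofin no member passed either. Il1b had 37.2, 104, 44.8 and 7.9 CPM in treated ovaries and 90.4, 76.4, 170, 39.8 and 22.7 CPM in untreated aged ovaries, overlapping widely (-0.72 ± 0.61, 95% interval -2.0 to 0.57, edgeR adjusted p = 0.861). Il1rn had 34.6, 43.7, 15.1 and 15.1 CPM with auranofin, against 58, 57, 141, 44.8 and 19.6 CPM in untreated aged ovaries. Its difference was -1.24 ± 0.51 (-2.33 to -0.15, unadjusted p = 0.0284, adjusted p = 0.645). Without auranofin library 3 and young library 3 the differences were -0.69 for Il1b and -1.04 for Il1rn.

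With auranofin, 4 of the 9 tested members had a log2 fold change above 0, the largest that of Il1r1, which did not pass the threshold. Il1r1 had 54.7, 45.2, 36.5 and 29.6 CPM in treated and 33, 21.5, 22.2, 23.5 and 18.9 CPM in untreated aged ovaries. The groups overlapped, with 3 of the 4 treated ovaries above every untreated one, and the share of genes with such a pattern was not computed. The difference of 0.79 ± 0.30 had an unadjusted p of 0.0195 and an adjusted p of 0.594. Pycard had 44.2, 42.5, 39.1 and 55.2 CPM with auranofin, below the lowest untreated aged ovary at 56.9 CPM, as 1.53% of the 16309 genes tested had in the same direction. Its difference was -0.62 ± 0.35 (95% interval -1.36 to 0.11, adjusted p = 0.767).

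The remaining members overlapped between auranofin-treated and untreated aged ovaries. Il1r2 had 15.4, 15.5, 15.4 and 9.56 CPM with auranofin, and its log2 fold change had a 95% interval from -0.96 to 1.18. The intervals of Aim2 (-0.95 to 1.15), Casp1 (-0.96 to 1.10) and Il18 (-1.17 to 0.46) included 0, and that of Nlrp3 ran from -2.73 to 1.66. Il1a had 0.525, 0.639, 0 and 0 CPM with auranofin and did not pass the filter. Of the 9 members tested, 0 passed in edgeR's test, where 0.0184% of all genes passed in either direction, and 0 in DESeq2. An unadjusted p under 0.05 was found for 2 of the 9 and for 1148 of all 16309 genes tested. The neutrophil marker sum was 1270 to 5820 CPM with auranofin and 389 to 4050 CPM untreated, and the macrophage and monocyte sum 1490 to 7420 CPM with auranofin, lowest in auranofin library 3, and 4200 to 7600 CPM untreated. Their part in these values was not tested. Of the 60 tested genes of the 4 pathway lists, 0 passed with auranofin in edgeR's test and 0 in DESeq2. An unadjusted p under 0.05 was found for 5 of these 60, a share near that over all genes.

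**Figure D4:**
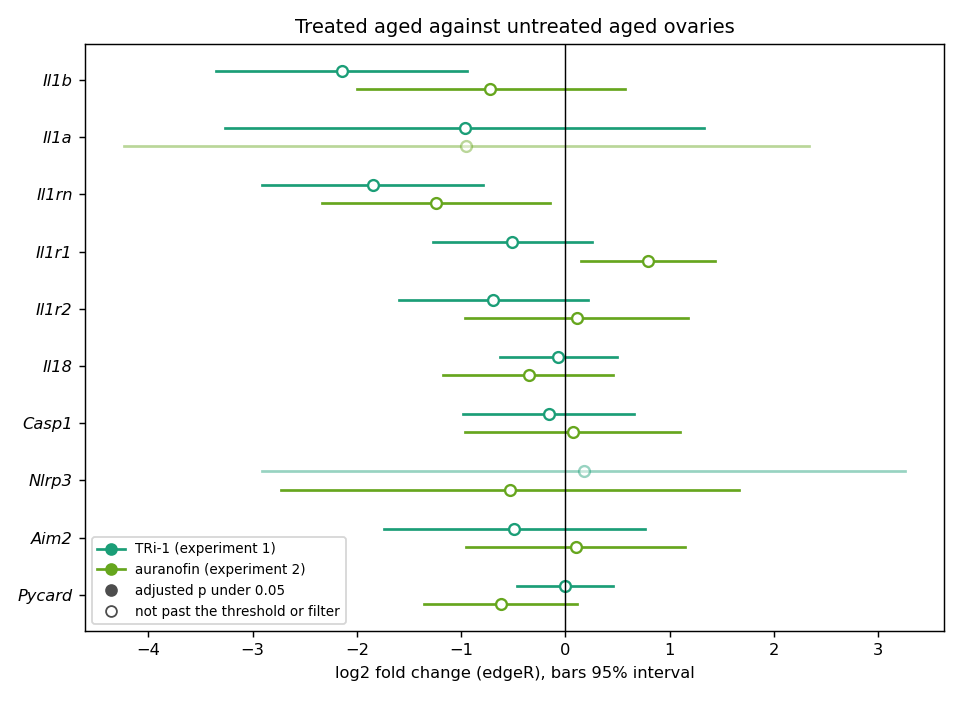
Log2 fold change of each gene in treated against untreated aged ovaries, for TRi-1 (experiment 1) and for auranofin (experiment 2), with 95% intervals from edgeR; no point passed the adjusted threshold of 0.05. The intervals of Il1b and Il1rn with TRi-1 and of Il1rn and Il1r1 with auranofin lie on 1 side of 0.

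The effects of the 2 compounds were compared in the fit of all 27 libraries, across experiments and at doses that the labels do not give. None of the 10 genes passed in edgeR's test of that difference, or in DESeq2's, where 0.0172% of the 17484 genes tested passed in edgeR's. An unadjusted p under 0.05 was found for 1 of the 10 and for 1900 of all 17484 genes. Il1r1 had the smallest p: auranofin minus TRi-1 was 1.28 ± 0.47 (edgeR adjusted p = 0.317). For Il1b the difference was 1.40 ± 0.87 (95% interval -0.39 to 3.20) and for Il1rn 0.59 ± 0.74 (-0.93 to 2.12).

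Treated aged ovaries were also set against young ovaries of the same experiment, the same young libraries that serve the age comparison. With TRi-1, 6 of the 9 tested members were higher than in young ovaries, Il1b, Il1rn, Il1r2, Casp1, Aim2 and Pycard, where 10.9% of genes were. Those 6 and Il18 did not overlap with young ovaries, as 11.2% of genes did not. Il1b was 4.29 ± 0.68 higher on the log2 scale (19.6-fold, edgeR adjusted p = 3.4e-04; 5.25 without young library 1), Il1rn 3.83 ± 0.57 (adjusted p = 2.1e-04) and Pycard 1.22 ± 0.21 (adjusted p = 6.0e-04). Il1r2 was 1.66 ± 0.43 higher, a call lost without TRi-1 library 1 at an adjusted p of 0.0544 (0.00403 to 0.0544 over all alternatives). Nlrp3 was at least 7.51-fold higher, from 25 counts with TRi-1 and 0 in young ovaries (5.08-fold without TRi-1 library 4).

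With auranofin, 5 of the 9 tested members were higher than in young ovaries, where 5.42% of genes were: Il1b by 5.81 ± 0.74 (55.9-fold, edgeR adjusted p = 3.4e-04; 5.09 without auranofin library 2), Il1rn by 4.47 ± 0.58, Il1r2 by 3.91 ± 0.57, Aim2 by 2.01 ± 0.51 and Il1r1 by 1.20 ± 0.30. Il1b, Il1rn, Il1r2 and Aim2 did not overlap with young ovaries, as 5.29% of genes did not. The calls of Il1r1 (adjusted p = 0.0221) and Aim2 (0.0224) were both lost without young library 1 or 4 or auranofin library 1, which left 3. Il1r1 also lost its call without young library 5 (adjusted p = 0.0567) or auranofin library 2 (0.053), and Aim2 without auranofin library 4 (0.0681). Casp1 was called without young library 3, at 1.40 and an adjusted p of 0.0282. Over all alternatives the adjusted p ran from 0.00276 to 0.0791 for Il1r1, from 0.00247 to 0.0681 for Aim2 and from 0.0282 to 0.71 for Casp1. In the pathway lists, 10 of 17 tested genes induced by IL-1 were higher than in young ovaries with TRi-1 and 10 of 18 with auranofin. The shares over all genes tested were 10.9% with TRi-1 and 5.42% with auranofin. For the other lists the counts were 5 of 10 and 3 of 10 for the other ligands and receptors, 3 of 14 and 1 of 14 for receptor signalling, and 7 of 17 and 4 of 18 for the other inflammasome and pyroptosis genes, with 1 lower with TRi-1. Without the libraries that stood apart the auranofin counts were 13 for the genes induced by IL-1, 6 for the other ligands and receptors, 0 for receptor signalling and 6 for the inflammasome and pyroptosis genes (edgeR). The share over all genes in that fit is not given here.

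How the members varied among mice of a group was examined after the mean of each group had been subtracted from log2 CPM, over the 27 libraries. Il1b went with Il1rn (Pearson r = 0.59, Spearman rho = 0.52), Nlrp3 (0.59 and 0.54) and Il1r2 (0.50 and 0.51). Their permutation p were 0.00468, 0.00448 and 0.00682, and 0.0659 each after adjustment over the 29 relations computed, so 0 of 29 passed while 7 had an unadjusted p under 0.05. For Spearman's rho the permutation p were 0.016, 0.00667 and 0.00857. Without the 2 libraries farthest from the median of Il1b, the r values were 0.56, 0.51 and 0.51. Mice that were high in Il1b for their group tended to be high in the other 3 genes, to a degree that did not pass the adjusted threshold.

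Against the mean log2 CPM of the leukocyte markers the residual r of Il1b was 0.32 for the neutrophil list (permutation p = 0.143) and 0.24 for the macrophage and monocyte list (p = 0.365), both 27 libraries. The difference from its r with Il1rn was not tested. Without the 2 libraries farthest from each list's median, these r were 0.20 and 0.46, in the opposite order (permutation adjusted p = 0.615 and 0.165). Auranofin library 3 was among those left out for the macrophage and monocyte list. Over all 27 libraries, Il1a (r = 0.53, p = 0.012, adjusted 0.0869) and Casp1 (r = 0.45, p = 0.0347, adjusted 0.168) had the highest r with the macrophage and monocyte list. In the marker sums, a measure other than the mean used for r, single libraries went both ways. Aged library 3 of each experiment was the highest of its group in neutrophil marker sum and in Il1b. Auranofin library 4 was the highest of its group in the neutrophil sum and the lowest in Il1b, and TRi-1 library 1 was the lowest in the neutrophil sum and the highest in Il1b.

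**Figure D5:**
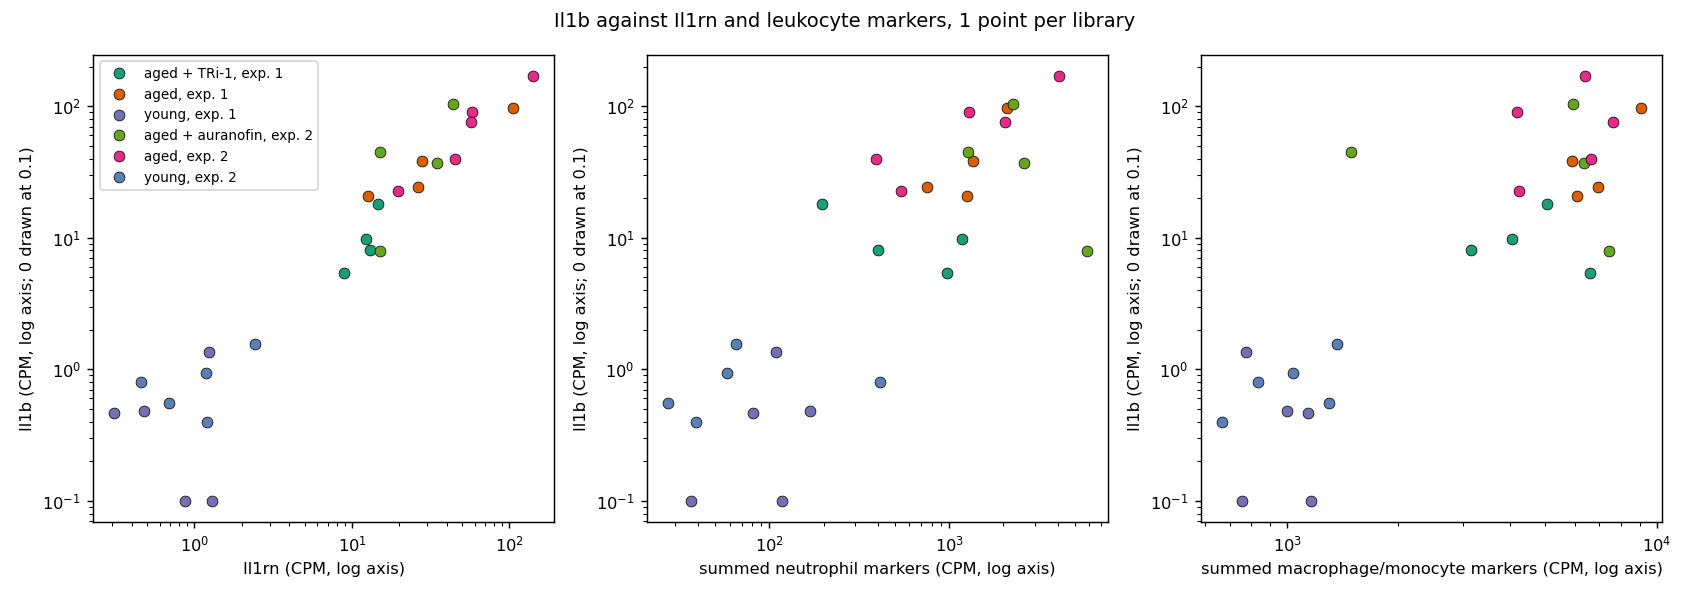
Il1b level in each of the 27 libraries against Il1rn and against the summed neutrophil and macrophage or monocyte markers, all in CPM on log axes, with 0 drawn at 0.1. The aged libraries, at 5.43 CPM of Il1b or more, are separated from the young ones, at 1.55 CPM or less. After subtraction of group means from log2 CPM, r was 0.59 with Il1rn. For the marker lists r was computed with the mean log2 CPM of the markers, not with the sums drawn. It was 0.32 for the neutrophil and 0.24 for the macrophage and monocyte markers. Without the 2 libraries farthest from each list's median, r with the 2 marker lists was 0.20 and 0.46.

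The genes whose residual pattern was most like that of Il1b, among 11333 other genes whose mean reached 5 CPM, were Clec4e (r = 0.79), Sod2 (0.78), Csnk2a2 (0.77), Efhd2 (0.77) and Cd14 (0.76) over the 27 libraries. Clec4e, a C-type lectin receptor of myeloid cells, averaged 4.88 CPM in TRi-1-treated, 20.1 in untreated aged and 0.177 in young ovaries of experiment 1, and 18.9 CPM in auranofin-treated, 47.1 in untreated aged and 0.117 in young ovaries of experiment 2. Sod2 is also in the list of genes induced by IL-1 and Cd14 in the macrophage and monocyte list. Csnk2a2 averaged 34.2 CPM in untreated aged and 39.7 in young ovaries of experiment 1, and 43.9 and 46.9 CPM in experiment 2. For Efhd2 these means were 22.8 and 10.1 CPM, and 45.7 and 17 CPM. For Casp1 the nearest genes were Lrrfip1 (r = 0.79), H3f3b (0.78), Arpc3 (0.78), Gusb (0.77) and Otulinl (0.77), and for Il1r1 they were Bhlhe22 (0.76), Mnt (0.74), Sfr1 (0.72), Vim (0.71) and Eif4e (0.68). These are descriptions over the same 27 libraries, whose depths differ. Each r is among the highest of 11333 values, and how high such values run without any relation was not computed.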

How the data were processed

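RNA of 27 mouse ovaries was profiled as 3′ tag libraries (Lexogen QuantSeq, polyA RNA, RNeasy with DNase I, per the labels' protocols). The authors deposited whole-number counts per gene in 1 table. RSEM 1.2.3, DESeq2 and the build mm10 appear in the submitters' processing notes with no role, and the annotation, filters and strand of counting are not given in the sources used here. Symbols came from GENCODE M21 and promoter sequences from RefSeq (GRCm38.p6).

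Counts were tested in R 4.3.3 with edgeR 4.0.16 (TMM, filterByExpr on groups, quasi-likelihood F test, 1 mean per group, Benjamini-Hochberg over all genes tested, threshold 0.05). Each experiment had its own fit, of 13 and 14 libraries, and differences of effects came from a fit of all 27. Standard errors are the log2 fold change over the square root of F. The test was checked on simulated counts of equal dispersion in all genes and libraries. That check does not cover libraries that stand apart, as some do here. Log2 CPM used a prior count of 2 and correlations 100000 permutations within groups. Floors of 3 counts cover counting error only. No library was a copy of another within groups (chi-square per gene 22.4 to 227 over 48 pairs).

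The 10 genes and all lists were chosen with earlier results of these data known. All 10 are named in every comparison, with up to 4 called genes of smallest p per pathway list in the age comparisons, and the 5 genes most like Il1b, Casp1 and Il1r1. Labels name a mouse per library but no litter or batch, so p-values measure the spread between these mice. Alternatives were RLE size factors, DESeq2 1.42.0, no filter, at least 5 CPM, a replicate block, haemoglobin genes left out, other sets of libraries in the fit, and each library left out. Leaving out the libraries that stood apart was added after seeing the data. Plots used matplotlib 3.10.9.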

Additional observations from a re-analysis of the deposited data

Results flagged for a closer look

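Of 59 groups of 4 or 5 libraries, 7 had a library whose gap to the nearest other library was large for the group's range. The rule flags about 1 in 20 where values are normal and groups independent. CPM near 0 are not normal and the 59 groups reuse the same 27 libraries, so the 7 cannot be read against that rate. Young library 3 of experiment 2, which also stood apart by its low theca and luteal, granulosa and oocyte markers, was the highest of its group for Pycard (106 CPM, the others 27.4 to 38.5 CPM), Casp1 (22 CPM, the others 2.63 to 7.38 CPM) and Il1a (2.85 CPM, the others 0). Aged library 3 of experiment 1, the one high in hepatocyte markers, was the highest for Il1rn (106 CPM, the others 12.6 to 28 CPM). Aged library 1 of experiment 1 was the highest for Il18 (108 CPM, the others 44.9 to 47.8 CPM). Young library 2 of experiment 2 was the highest for Il1r1 (32.3 CPM, the others 11.2 to 15.5 CPM). Auranofin library 4 was the lowest for Il1r2 (9.56 CPM, the others 15.4 to 15.5 CPM).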

How the results depend on the processing

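Over the alternatives, 1909 of 2037 values of the members and their counts kept direction and side of the threshold, as did 859 of 899 correlations, 623 of 632 values of the other named genes and 755 of 800 list counts. With TRi-1, 1 member passed in DESeq2 and 2 with no filter on low counts. In auranofin-treated against young ovaries 3 passed when only those groups were fitted. With 1 library left out, the members called numbered 6 to 7 and 3 to 6 for age in experiments 1 and 2, 5 to 7 for TRi-1 and 3 to 6 for auranofin against young ovaries. The share of all genes called in each of those fits is not given beside these counts. With no filter, 8 rose with age in experiment 1, Nlrp3 included. Residual correlations that passed numbered 4 of 29 with no scaling between libraries and 0 to 4 with 1 library left out. The cause of these changes was not tested.

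The values that turned sign were these. With TRi-1, Pycard was 0.00 with RLE size factors, DESeq2, no filter, the replicate block or only the groups compared, and 0.02 with genes of at least 5 CPM or all 27 libraries. Under the replicate block, auranofin against aged was -0.00 for Il1r2 and -0.02 for Aim2, auranofin against young 0.10 for Pycard (0.53 without the libraries that stood apart), the age difference between experiments 0.39 for Il1a (3.91 without those libraries) and the treatment difference -0.45 for Il1a (-0.03 in DESeq2). The age difference of Il1r1 was -0.02 without haemoglobin genes, and without the libraries that stood apart the treatment difference was -0.17 for Il1rn and 0.09 for Il18. Residual r of Il1r1 with Il1b was 0.04 with no scaling and 0.08 without the 2 farthest libraries, where Pycard with Il1b had 0.00, Nlrp3 with neutrophil markers -0.07 and Il18 with macrophage and monocyte markers -0.07. Without the libraries that stood apart, r with neutrophil markers was -0.01 for Il1r1 and -0.13 for Pycard.

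With 1 library left out, log2 fold changes that turned sign ran, for TRi-1 against aged, from -0.18 to 0.33 (Il18), -0.40 to 0.05 (Casp1) and -0.09 to 0.13 (Pycard), and for auranofin against aged, from -0.15 to 0.33 (Il1r2), -0.17 to 0.27 (Casp1), -1.09 to 0.02 (Nlrp3) and -0.26 to 0.33 (Aim2). Against young ovaries they ran from -0.32 to 0.19 (Il1r1, TRi-1), -0.44 to 0.15 (Il18, auranofin) and -0.23 to 0.51 (Pycard, auranofin). Age differences between experiments ran from -0.88 to 0.81 (Il1b), -2.34 to 3.80 (Il1a), -0.48 to 1.00 (Il1rn) and -0.27 to 0.33 (Il1r1), and treatment differences from -0.68 to 0.40 (Il1a), -0.40 to 1.10 (Il1rn) and -0.06 to 0.46 (Casp1). Residual r ran from -0.22 to 0.21 (Il1r1 with Il1b), -0.04 to 0.10 (Il1r1 with neutrophil markers), -0.03 to 0.34 (Pycard with neutrophil markers) and -0.10 to 0.42 (Il18 with macrophage and monocyte markers), and the Il1rn to Il1b ratio with auranofin from -0.70 to 0.13.

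Same-numbered libraries did not deviate together throughout (r from -0.40 to 0.63), so the numbers were not taken as pairs. With the replicate block, Il18 (experiment 1, adjusted p = 0.164) and Aim2 (experiment 2, 0.052, and auranofin against young, 0.0678) lost their calls in edgeR. Over all genes, TRi-1 gave 67 calls in edgeR, 587 in DESeq2, 173 with genes of at least 5 CPM, 167 with no filter, 1 with the block and 0 without aged library 3 or TRi-1 library 1 or 4 (0 to 164 with 1 library left out). TRi-1 against young ovaries gave 1751 higher and 1620 lower, with 2229 in all under the block. Auranofin gave 3, with 76 in DESeq2, 11 with the block and 10 in the fit of all 27 libraries. Auranofin against young ovaries gave 1464, with 2329 in DESeq2, 2398 in the fit of all 27 libraries 733 with only the groups compared and 906 without auranofin library 1. Nlrp3 and Il1a had at most 36 and 25 counts in any library, which limits what can be said of them.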
